A study of Mus musculus with 58 samples.

Results

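The chromatin occupancy of endogenous PSPC1 was compared with that of SAFB and SAFB2 in mouse embryonic stem cells, and the question was how far the proteins shared stretches of the genome or were apart. The comparison used 4 of the 9 peak lists from chromatin immunoprecipitation and sequencing (ChIP-seq): both PSPC1 libraries, from cells with a tag on the endogenous gene, and the single libraries of overexpressed SAFB and SAFB2. All peaks of these lists on chromosomes 1 to 19 were members, 56387 of the 156215 peaks in the 9 lists. They comprised 18065 peaks of PSPC1 replicate 1, 22480 of PSPC1 replicate 2, 9724 of SAFB and 6118 of SAFB2.

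PSPC1 was measured in AID-FB(KI)-PSPC1 cells, a knock-in line made from CJ9 cells of strain 129/Ola, which were untreated and fixed with 3% formaldehyde. SAFB and SAFB2 were measured in FB(OE)-SAFB and FB(OE)-SAFB2 lines, also labelled 129/Ola and untreated, made from J1 cells that carry the biotin ligase BirA. Those cells were fixed with 2 mM of the protein crosslinker DSP and then 1% formaldehyde, the chromatin was partly fragmented with DNase I, and a streptavidin purification accompanied the FLAG antibody. All of these immunoprecipitations used 5 µg of FLAG antibody. Protein, parental line, level of expression and fixation therefore cannot be told apart between PSPC1 and SAFB. The list of hnRNPU, made by the SAFB protocol in the same parental line, served as the comparator. Lists of overexpressed UTP6, UTP3, CIRH1A and PSPC1 were also read. The first 3 came from cells fixed as for knock-in PSPC1, with 3% formaldehyde and no DSP. Overexpressed PSPC1 came from cells fixed with 1% formaldehyde and no DSP. How many clones the lines represent is not given in the sources used here, and neither is whether the PSPC1 replicates came from separate cultures.

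PSPC1 is a member of the DBHS family of RNA- and DNA-binding proteins and a component of paraspeckles, the nuclear bodies that form around the long noncoding RNA Neat1. SAFB and its close paralogue SAFB2 carry a SAP domain, which binds the AT-rich scaffold or matrix attachment regions of DNA, together with an RNA recognition motif. hnRNPU, also called scaffold attachment factor A, combines a SAP domain with an RNA-binding RGG region as well. These properties are background and were not measured here.

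The deposited lists give a position and a score per peak, in the mm9 build per the submitters' processing notes. The unit of the score is not stated, so it ranks peaks within a list only. The lowest score was 30.0 in the PSPC1 lists and 50.0 in the SAFB and SAFB2 lists. Sequencing depth is unknown. The number of peaks in a list therefore could not be adjusted for depth. The lists hold no expression values against which the cell type could be checked. With 1 library each of SAFB, SAFB2 and hnRNPU, no difference between proteins was tested. The SD given with a value is the spread over the 2 PSPC1 libraries and does not cover variation of the other proteins.

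PSPC1 peaks were packed into a small part of the genome, whereas SAFB peaks were spread almost evenly. Counts were taken in 2397 fixed bins of 1 Mb. The median bin held 4 PSPC1 peaks in replicate 1 and 5 in replicate 2, against 4 SAFB and 2 SAFB2 peaks, but the fullest bins held 124 and 122 PSPC1 peaks against 43 SAFB and 39 SAFB2 peaks. In the fullest bins, 50% of the PSPC1 peaks lay in 11.9% and 13.1% of the genome examined. The same share of SAFB peaks took 27.7% of the bins, and of SAFB2 peaks 23.6%. The variance of the bin counts divided by their mean, which is 1 for peaks scattered at random, was 17.6 in both PSPC1 libraries, 1.88 for SAFB and 1.97 for SAFB2. The gap was smaller at equal list length: when each list was reduced to its 6118 highest-scoring peaks, the values were 5.97 and 5.61 for PSPC1, 1.70 for SAFB, 1.96 for SAFB2 and 2.17 for hnRNPU. The remaining lists gave 3.91 for CIRH1A, 3.45 for overexpressed PSPC1, 2.79 for UTP3 and 2.10 for UTP6.

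**Figure D1:**
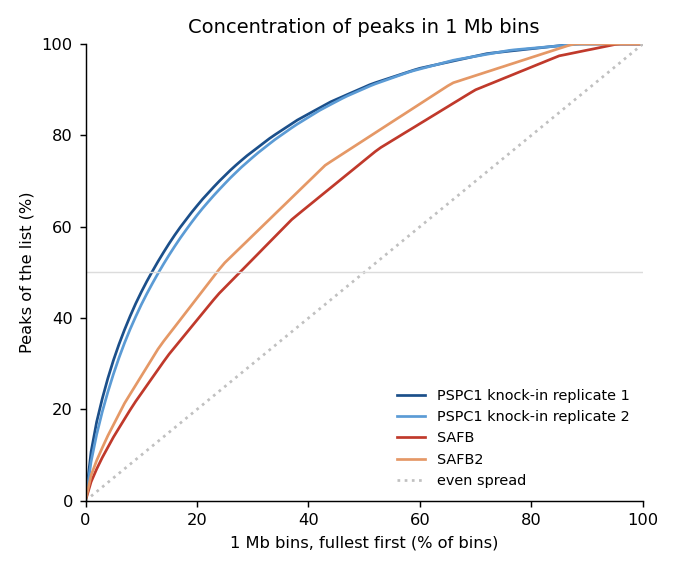
Share of the peaks of each list (vertical axis, %) held by the fullest 1 Mb bins (horizontal axis, % of 2397 bins). The PSPC1 curves reach 50% of the peaks at 11.9% and 13.1% of the bins, and the SAFB and SAFB2 curves at 27.7% and 23.6%; the dotted line is an even spread.

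Whole chromosomes differed in the same way. PSPC1 density in replicate 1 ran from 3.90 peaks per Mb on chromosome 3 to 21.3 on chromosome 1. In replicate 2 the same chromosomes marked the ends, at 5.27 and 22.4 peaks per Mb. SAFB density only ran from 3.38 peaks per Mb on chromosome 19 to 4.67 on chromosome 8. SAFB2 had the same extremes, at 1.78 and 3.25 peaks per Mb. Chromosome 1 thus carried an excess of knock-in PSPC1 peaks without a like excess of SAFB peaks, at 4.50 per Mb. The list of overexpressed PSPC1 did not have this excess either, with 9.31 peaks per Mb on chromosome 1 and 13.4 on chromosome 11.

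At 1 Mb, bins rich in PSPC1 were SAFB-poor or SAFB-rich about as often as all bins. A bin was called rich at or above the 80th percentile of a list's counts and poor at or below the 20th. Because counts are tied, the classes exceed 20% of the bins. PSPC1-rich bins numbered 502 in replicate 1 and 481 in replicate 2, which is 20.9% and 20.1% of all bins. Of them 149 and 141 were SAFB-poor, 29.5% ± 0.26 (SD, n = 2), where 30.1% of all bins were SAFB-poor. The ratio of these shares, called the fold below, was 0.979 ± 0.0086. The fold lay between 0.888 and 1.14 under the alternatives in bin size, percentile, score minimum and chromosomes, on both sides of 1. With the 6118 highest-scoring peaks of each list it was 1.33, and the direction turned toward separate bins. SAFB-rich bins were as common among PSPC1-rich bins, at 23.6% ± 0.73, as among all bins, at 23.7%. The bins poor in PSPC1 (669 in replicate 1, 27.9% of all, and 568 in replicate 2, 23.7%) included 159 and 129 SAFB-rich bins. That was 23.2% ± 0.75 of them, again near the 23.7% of all bins.

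SAFB2 likewise stood near the share of all bins. Of the PSPC1-rich bins 32.9% ± 1.1 were SAFB2-poor, against 34.3% of all bins, a fold of 0.960 ± 0.033. This fold passed to the other side of 1 in 2 Mb bins (1.02), without chromosome 1 (1.02), with scores of at least 50 (1.01) and with 6118 peaks per list (1.01). SAFB2-rich bins made up 27.4% ± 0.68 of them, against 24.7% of all bins. Among PSPC1-poor bins the SAFB2-rich share was 21.4% ± 1.2, a fold of 0.869 ± 0.048. With the PSPC1 replicates summed, 132 bins were rich in both and 104 were SAFB2-rich and PSPC1-poor. Both counts lay within the range of circular shifts of the SAFB2 bin classes along each chromosome (97 to 156 and 97 to 152).

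The hnRNPU list, made by the SAFB protocol, was distributed quite differently. Of the PSPC1-rich bins 52.8% ± 1.2 were hnRNPU-rich, 2.52 ± 0.056 times the share among all bins. Only 23 and 18 of them were hnRNPU-poor, a fold of 0.163 ± 0.023. SAFB and SAFB2 also resembled each other, since 54.3% of the SAFB-rich bins were SAFB2-rich, a fold of 2.20. The PSPC1 replicates gave a fold of 4.23 for rich bins. Shared rich bins were thus frequent between other pairs of lists at this bin size.

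Rank correlations over the same 2397 bins were also near 0 for the full lists. They are descriptions, because neighbouring bins are not independent and all bins share mappability and base composition. Spearman's rho between PSPC1 and SAFB counts was -0.013 in replicate 1 and 0.0018 in replicate 2. For SAFB2 it was 0.025 and 0.035. With the 6118 highest-scoring peaks of each list the mean over both replicates was -0.22 for SAFB and -0.031 for SAFB2. The corresponding values for hnRNPU were 0.63 and 0.65, those for the PSPC1 replicates with each other 0.92, and those for SAFB with SAFB2 0.58. Computed within single chromosomes, rho between PSPC1 replicate 1 and SAFB ran from -0.27 on chromosome 4 to 0.15 on chromosome 17 and was above 0 on 10 of the 19 chromosomes. For hnRNPU it was above 0 on all 19, with a lowest value of 0.42. Mean PSPC1 counts in replicate 1 were 7.24 peaks per bin in the 109 bins with no SAFB peak, 7.48 in the 370 bins with 4, and 9.20 in the 205 bins with 8 or more. In replicate 2 they were 8.95, 9.23 and 10.9, so that by the mean only the bins fullest in SAFB stood somewhat higher. The medians did not rise, at 4.0, 3.5 and 4.0 in replicate 1 and 5.0, 4.0 and 5.0 in replicate 2.

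**Figure D2:**
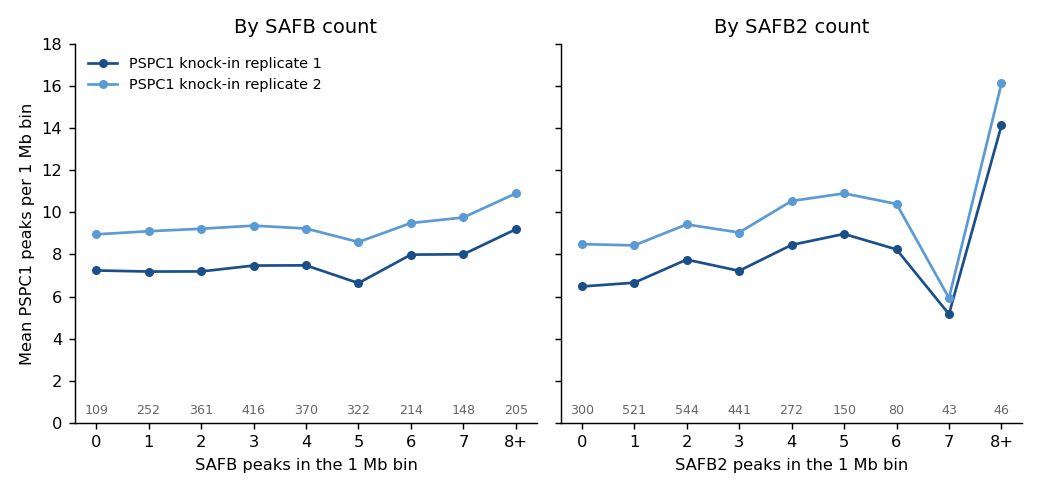
Mean number of PSPC1 knock-in peaks per 1 Mb bin (vertical axis) by the number of SAFB (left) or SAFB2 (right) peaks in the bin (horizontal axis), with the number of bins under each point. For SAFB the line of replicate 1 stays between 6.64 and 9.20 peaks per bin; the SAFB2 points at 7 peaks and at 8 or more rest on only 43 and 46 bins.

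At 100 kb a modest excess of shared bins appeared. Most of the 24057 bins of this size held no peak, so that rich meant at least 1 peak for PSPC1, SAFB and SAFB2. Of the PSPC1-rich bins 2973 in replicate 1 and 3455 in replicate 2 were SAFB-rich, 36.2% ± 0.42, where 30.9% of all bins were SAFB-rich. The fold was 1.17 ± 0.014. SAFB2 gave 25.5% ± 0.19 against 21.1% of all bins, a fold of 1.21 ± 0.0090. The same count for hnRNPU was 1.72 ± 0.0065, so the SAFB proteins shared 100 kb bins with PSPC1 far less than hnRNPU did. The SAFB excess was not seen when the 6118 highest-scoring peaks of each list were used, where the fold was 0.911.

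Runs of adjacent bins showed few extended territories of either kind. With the PSPC1 replicates summed, 60.0% of the 480 PSPC1-rich bins stood in runs of at least 3 Mb, the longest of 14 Mb, against 23.8% of the SAFB-rich bins, the longest of 6 Mb. PSPC1-rich, SAFB-poor bins numbered 139 in 101 runs. Circular shifts of the SAFB bin classes along each chromosome kept the clustering of both lists but broke their alignment. Over 1000 shifts they gave 111 to 167 such bins. The 12 runs of at least 3 Mb lay in the upper part of the shifts' range of 0 to 15, whose mean was 5.91. SAFB-rich, PSPC1-poor bins numbered 115, within the shifts' 95 to 146, and no run of them exceeded 2 Mb. For SAFB2, 7 PSPC1-rich, SAFB2-poor runs reached 3 Mb, where the shifts gave 0 to 13. The longest was 7 Mb, at the top of the shifts' 2 to 7 Mb. The longest SAFB2-rich, PSPC1-poor run was 4 Mb, where the shifts gave 2 to 5 Mb. At 100 kb the alignment of PSPC1 and SAFB left a clearer mark. There 1805 bins were rich in both, above the shifts' 1418 to 1639. SAFB-rich and PSPC1-poor bins numbered 3505, below the shifts' 3948 to 4229. PSPC1 here counted as rich at the 80th percentile of the summed counts.

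The longest PSPC1-rich, SAFB-poor run was chr15:97000001-102000000. It held 120 and 164 PSPC1 peaks in replicates 1 and 2, 6 SAFB peaks and 6 SAFB2 peaks. It was followed by chr2:164000001-168000000, with 105 and 141 PSPC1 peaks and 8 SAFB peaks. A pair of runs lay close together on chromosome 4: chr4:134000001-138000000 held 90 and 138 PSPC1 peaks with 4 SAFB and 1 SAFB2 peak, and chr4:139000001-142000000 held 101 and 136 with 2 and 3. The fifth was chr1:57000001-60000000, with 100 and 117 PSPC1 peaks and 6 SAFB peaks. These stretches were not empty of other proteins, since the chromosome 15 run also held 189 UTP6 and 40 hnRNPU peaks.

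The leading run of the opposite kind, rich in SAFB and nearly free of knock-in PSPC1, was chr2:97000001-99000000. It held 20 SAFB and 13 SAFB2 peaks but 2 knock-in PSPC1 peaks in each replicate. Overexpressed PSPC1 had 15 peaks in this run, where its mean over all bins was 9.08 per 1 Mb bin. UTP6 had 17 peaks there and hnRNPU 7. At chr6:78000001-80000000 there were 18 SAFB and 12 SAFB2 peaks against 2 and 1 of PSPC1. The remaining runs named by length and contrast were chr6:10000001-12000000, chr2:175000001-177000000 and chr3:11000001-13000000, each with 14 to 16 SAFB peaks and at most 2 PSPC1 peaks in either replicate. Apart from the leading run, these runs held 5 to 8 peaks of overexpressed PSPC1. The 5 bins rich in both with the largest product of counts all lay on chromosome 1, the chromosome with the excess of knock-in PSPC1 peaks. The first was chr1:135000001-136000000 with 115 and 120 PSPC1 peaks and 7 SAFB peaks, and the fullest in SAFB was chr1:173000001-174000000 with 64 and 68 PSPC1 peaks and 10 SAFB peaks. None of these positions was assigned to a gene, since an annotation of this build was not used here.

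The contrasting bins were then read in lists that had not been used to choose them. Bins chosen as rich in PSPC1 replicate 1 and poor in SAFB, 149 in number, held 26.8 peaks of PSPC1 replicate 2 on average, 2.87 times the mean of all bins, and 1.51 SAFB2 peaks, 0.596 times the mean. Bins chosen as SAFB-rich and poor in PSPC1 replicate 1, 159 in number, held 1.37 peaks of replicate 2, 0.147 times the mean, and 3.91 SAFB2 peaks, 1.54 times the mean. The classes therefore carried over to the other library of PSPC1 and to the SAFB paralogue. This follows from the likeness of these lists over all bins (rho of 0.92 for the PSPC1 replicates and 0.58 for SAFB with SAFB2). It gives no evidence on the relation of PSPC1 to SAFB. The 149 and 159 bins were about as many as the shares of all bins give, with folds of 0.985 and 1.005. The remaining proteins were high in the first class and low in the second. In the first class overexpressed PSPC1 stood at 2.13 times its mean, UTP6 at 1.92, CIRH1A at 1.78, UTP3 at 1.66 and hnRNPU at 1.50 times. In the second they stood at 0.407, 0.505, 0.435, 0.557 and 0.572 times. They also differed by SAFB class at a like PSPC1 class: in the 198 bins poor in both, UTP6 stood at 0.295, UTP3 at 0.236 and hnRNPU at 0.276 times its mean, below the SAFB-rich, PSPC1-poor bins. Starting instead from PSPC1 replicate 2 and SAFB2, 162 and 117 bins were chosen. These held SAFB at 0.650 and 1.57 times its mean and PSPC1 replicate 1 at 2.61 and 0.111 times.

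**Figure D3:**
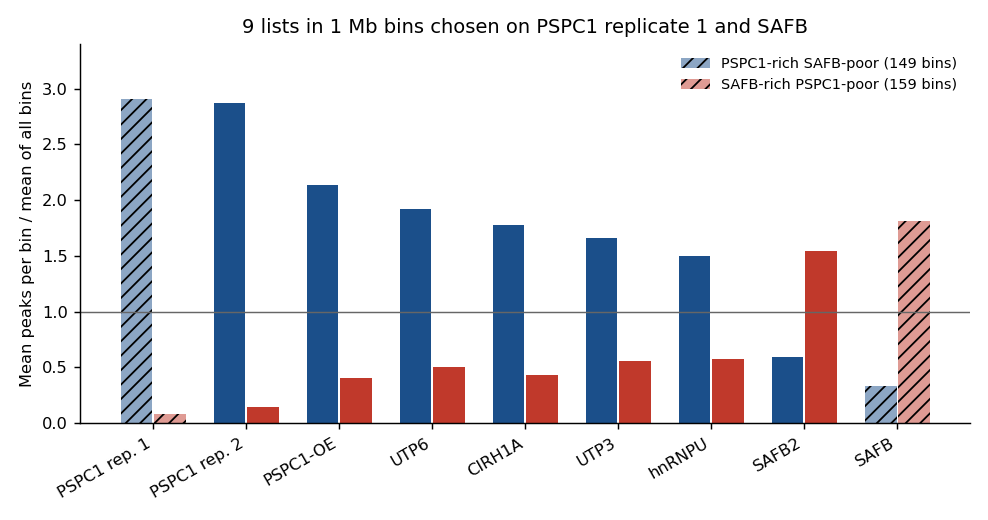
Mean number of peaks per 1 Mb bin divided by the mean over all bins (vertical axis) for each list, in the 149 PSPC1-rich SAFB-poor bins (blue) and the 159 SAFB-rich PSPC1-poor bins (red). Hatched pale bars are the lists that chose the bins; among the open choices PSPC1 replicate 2 stands at 2.87 and 0.147, SAFB2 at 0.596 and 1.54, and the other proteins between 1.50 and 2.13 in blue and between 0.407 and 0.572 in red.

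The distance from each SAFB peak to the nearest PSPC1 peak was somewhat shorter than after circular shifts of the PSPC1 list. The median was 80.6 kb to replicate 1, where 1000 shifts gave medians of 90.9 to 109.9 kb. To replicate 2 it was 58.7 kb, where the shifts gave 72.3 to 87.8 kb. The ratio of the observed median to the mean of the shifts was 0.772 ± 0.052 (SD, n = 2). It depended on which peaks were used: with the 6118 highest-scoring peaks of each list it was 1.25, so that the direction turned, and with all scores under 50 removed it was 0.923. SAFB2 peaks lay 73.6 and 52.8 kb away, a ratio of 0.700 ± 0.056. hnRNPU peaks were much closer, with medians of 21.5 and 9.45 kb and a ratio of 0.167 ± 0.069. Seen from PSPC1, the nearest SAFB peak lay at a median of 79.8 kb in replicate 1 and 79.9 kb in replicate 2, with ratios of 0.870 and 0.861.

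Overlapping peaks stood above the shifts in both replicates. Of the SAFB peaks 14.4% ± 2.9 overlapped a PSPC1 peak by at least 1 bp (12.4% for replicate 1, Wilson 95% interval 11.7 to 13.0%, and 16.5% for replicate 2, 15.8 to 17.3%), against 3.25% ± 0.40 after shifts. These intervals cover counting error only. The distance band under 1 kb held 1.22 ± 0.091 times the share after shifts, but its 1.47% for replicate 1 lay within the shifts' 0.833 to 1.59%. Bands from 1 to 10 kb, 10 to 100 kb and 100 kb to 1 Mb held 0.850, 0.855 and 0.911 times that share. SAFB peaks with no overlap lay at a median of 101.4 kb ± 12, against 96.4 kb after shifts, a median that joins score quartiles lying on both sides of the shifts, as given below. For SAFB2 the corresponding medians were 96.5 and 95.7 kb. For hnRNPU they were 54.5 kb ± 12 and 94.7 kb.

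Moving the PSPC1 list by a fixed offset showed how local the overlap was. The share of SAFB peaks that overlapped PSPC1 went from 14.4% with no offset to 13.2% at 1 kb, 8.15% at 2 kb and 3.64% at 5 kb. From 10 kb to 5 Mb it stayed between 3.09% and 3.54%, near the value of random shifts. The SAFB2 shares were 15.4% with no offset and 3.51% at 5 kb. For hnRNPU the drop was from 37.2% to 3.93% at 5 kb, after which the share continued down from 4.34% at 10 kb to 2.57% at 5 Mb. No such decline beyond 10 kb was visible in the SAFB profile. The SAFB2 share went from 3.64% at 10 kb down to 2.71% at 1 Mb, and was 3.24% at 5 Mb.

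**Figure D4:**
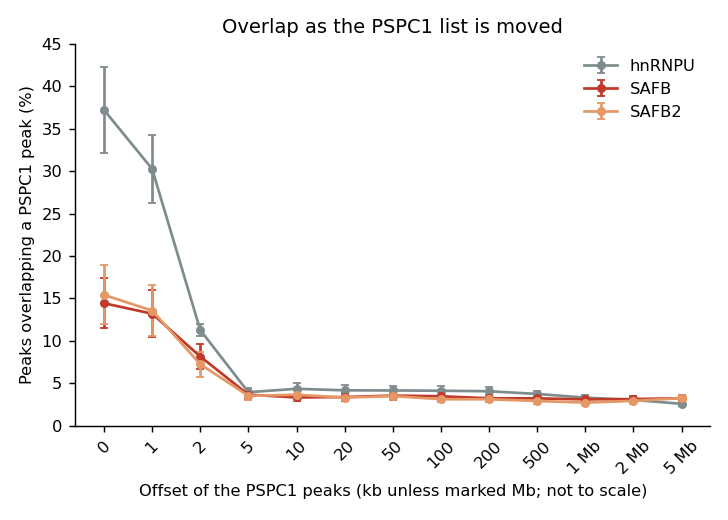
Share of SAFB, SAFB2 and hnRNPU peaks that overlap a PSPC1 peak (vertical axis, %) after all PSPC1 peaks are moved by the offset on the horizontal axis (kb or Mb, unevenly spaced); points are means and bars SDs over the 2 PSPC1 libraries. SAFB goes from 14.4% with no offset to 3.64% at 5 kb, and hnRNPU from 37.2% to 3.93%.

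The share of SAFB peaks that overlapped PSPC1 was highest in the bins densest in PSPC1. In PSPC1-rich 1 Mb bins 26.0% and 33.5% of the SAFB peaks overlapped PSPC1 of replicates 1 and 2. In intermediate bins the shares were 12.0% and 16.1%, and in PSPC1-poor bins 2.52% and 2.58%. The bins' classes use the same PSPC1 peaks, so this is a description. Rich bins held 11864 and 14016 PSPC1 peaks, and poor bins 377 and 300. The overlap to be had from density alone was not computed per class. Overlap beyond density therefore cannot be compared between the classes. SAFB peaks themselves were not concentrated in PSPC1-rich bins: 21.4% and 20.4% of them lay there, where these bins were 20.9% and 20.1% of all bins.

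Sites held by both SAFB and PSPC1 met the 5 other lists more often than SAFB peaks in general, but not SAFB2. SAFB peaks that overlapped PSPC1 in both replicates numbered 873, or 8.98% of the list. Of these, 92.7% (90.8 to 94.2%) also overlapped a peak of UTP6, a factor of ribosome biogenesis, 73.2% met overexpressed PSPC1, 64.4% UTP3, 48.9% CIRH1A and 46.6% hnRNPU. Only 36 of them, 4.12%, had a peak of none of these 5 lists. Among all 9724 SAFB peaks, UTP6 was met by 43.4%, overexpressed PSPC1 by 24.1%, UTP3 by 26.0%, CIRH1A by 18.75% and hnRNPU by 17.2%. No peak of the 5 lists was met by 53.7% of all SAFB peaks. The 7790 SAFB peaks with no PSPC1 peak in either replicate met UTP6 at 32.3% and hnRNPU at 11.1%, and 64.8% of them met none of the 5 lists. SAFB2 went the other way. It was met by 29.9% of the 873 peaks, 34.6% of the 7790 and 33.8% of all SAFB peaks. SAFB2 gave the same contrast, with 598 peaks at PSPC1 in both replicates of which 91.1% met UTP6, against 43.9% of all SAFB2 peaks. Of its 4831 peaks without PSPC1, 63.9% met none of the 5 lists, against 52.4% of all. SAFB was met by 42.0% of the 598, 57.4% of the 4831 and 54.1% of all SAFB2 peaks.

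The PSPC1 peaks away from SAFB formed the bulk of the PSPC1 lists. Peaks overlapping neither SAFB nor SAFB2 made up 90.7% of replicate 1 and 89.8% of replicate 2. Of these, 47.6% and 50.6% met UTP6, compared with 91.7% and 92.8% of the 339 and 460 PSPC1 peaks that met both SAFB and SAFB2. Peaks meeting both also had higher scores in their own lists, with medians of 64.4 and 64.9 against 51.8 and 52.8. They were more often found in the other replicate, at 75.2% and 55.7% against 57.4% and 47.6%.

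By mean score rank, the leading PSPC1 peaks found in both replicates and meeting SAFB and SAFB2, of 255 such peaks, were chr4:104039097-104042387 and chr8:123595603-123617067, both with the score of 3100 in each replicate. Their SAFB peaks had scores of 71.4 and 61.3, below the list's median of 73.9. The others were chr11:96130773-96139891, chr17:39979846-39986238 and chr7:80534163-80537718. The chromosome 17 site ranked 10 in the SAFB list and 11 in the SAFB2 list and met all 5 other lists, and the chromosome 11 site ranked 1054 in the SAFB list. At the other extreme, 106 SAFB peaks lay over 1 Mb from any PSPC1 peak of either replicate, and none of them was on chromosome 1. The farthest, chr2:87520076-87521935, was 1.67 Mb away, and the second, chr11:38718265-38722129, also 1.67 Mb. Both overlapped UTP6 and UTP3 peaks.

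The weak relation over all SAFB peaks combined opposite relations of low-scoring and high-scoring peaks. SAFB peaks were divided by score into 4 quartiles of 2431, a division chosen after the distances of all peaks had been seen. The median distance to the nearest PSPC1 peak of replicate 1 was 44.5 kb in the lowest quartile, then 61.7 and 90.7 kb, and 164.4 kb in the highest. To replicate 2 the medians were 29.7, 40.9, 64.9 and 134.0 kb in the same order. The lowest quartile lay below every shift in both replicates (87.7 kb and 69.0 kb at the least), and the highest lay above every shift (122.1 kb and 96.3 kb at the most). The ratios to the shifts were 0.413 ± 0.054, 0.576 ± 0.079, 0.854 ± 0.068 and 1.63 ± 0.026 (SD, n = 2). Strong SAFB peaks were thus farther from PSPC1 than misaligned lists, and weak ones closer. The order was the same among peaks with no overlap. Those of the lowest quartile lay at 71.5 and 58.5 kb, below the shifts' lowest of 92.0 and 75.5 kb. Those of the highest lay at 185.2 and 157.7 kb, above the shifts' highest of 129.2 and 106.2 kb.

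**Figure D5:**
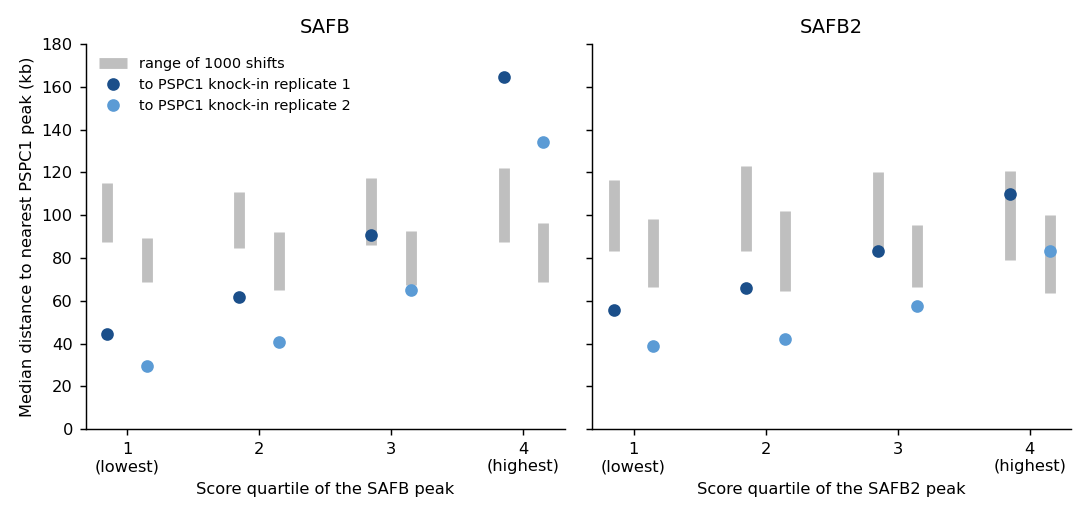
Median distance from SAFB (left) and SAFB2 (right) peaks to the nearest PSPC1 peak (vertical axis, kb) by score quartile of the SAFB or SAFB2 peak (horizontal axis), for each PSPC1 library; grey bars span the medians of 1000 circular shifts. For SAFB the points move from 44.5 and 29.7 kb, below the bars, to 164.4 and 134.0 kb, above them, while for SAFB2 the highest quartile lies within the bars.

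The same gradient ran through the bins. Over 1 Mb bins Spearman's rho of PSPC1 with the SAFB peaks of the lowest quartile was 0.24 ± 0.0094, followed by 0.12, -0.047 and, for the highest quartile, -0.33 ± 0.00043. Bins with at least 2 SAFB peaks of the lowest quartile held 11.6 ± 1.6 PSPC1 peaks on average, and bins with at least 2 of the highest held 4.55 ± 0.71. PSPC1-poor bins, 25.8% ± 3.0 of the genome examined, contained 17.4% ± 2.1 of the lowest and 37.2% ± 4.2 of the highest SAFB quartile. Overlap was still above the shifts in every quartile, but the fold went from 6.06 ± 0.22 to 2.30 ± 0.24. The strongest SAFB peaks were thus over-represented in PSPC1-poor bins, though most lay outside them, and still overlapped PSPC1 more often than shifted lists did.

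SAFB2 showed a gradient in the same direction, with lower values in the highest quartile. Its ratios were 0.523 ± 0.053, 0.595 ± 0.097, 0.781 ± 0.081 and 1.07 ± 0.039 from the lowest to the highest score quartile, and rho went from 0.14 to -0.100. The highest SAFB2 quartile did not pass the range of the shifts, with 109.7 kb to replicate 1 against at most 120.7 kb. Sharing between the paralogues was related to distance as well. SAFB peaks that overlapped a SAFB2 peak, 3282 in number, had a ratio of 1.12 ± 0.032, and the 6442 that did not had 0.650 ± 0.083. SAFB2 peaks that overlapped SAFB gave 1.12 ± 0.034, and those that did not 0.423 ± 0.075. The shared peaks did not pass the range of the shifts. Shared SAFB peaks lay at 115.0 and 88.3 kb, against at most 115.9 and 91.4 kb. Shared SAFB2 peaks lay at 115.5 and 88.6 kb, against at most 116.5 and 92.5 kb. The peaks that were not shared lay below every shift in both replicates.

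The median distance of hnRNPU peaks ran the other way. The lowest score quartile of hnRNPU had a ratio of 0.255 ± 0.042, and the highest 0.0597 ± 0.084, with 24.7% ± 3.1 of the lowest and 49.6% ± 6.5 of the highest quartile overlapping PSPC1. The reverse order was not seen without the overlapping peaks: hnRNPU peaks with no overlap lay at 44.9 kb ± 9.4 in the lowest and 79.7 kb ± 14 in the highest quartile, the order of the SAFB peaks. Whether the quartiles of the proteins differ beyond the variation between libraries could not be tested with 1 library each.

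Other features of the SAFB peaks moved with the score. The median width was 1360 bp in the lowest quartile and 2278 bp in the highest, and the share overlapping SAFB2 was 16.3% and 63.0%. Width alone showed the opposite order: the narrowest quartile of SAFB peaks had a ratio of 1.08 ± 0.024 and the widest 0.647 ± 0.10. The share of SAFB peaks meeting UTP6 was 49.0% in the lowest score quartile and 33.2% in the highest, while the share meeting hnRNPU was 15.6% and 17.2%. Among SAFB peaks with a peak in none of the 5 other lists the gradient was present too, from 1.02 ± 0.071 in the lowest score quartile to 2.15 ± 0.18 in the highest, 1305 peaks each. Here the lowest quartile was not closer to PSPC1, since its median lay within the shifts in both replicates. Its overlap with PSPC1 was 2.95%, against 2.85% after shifts. In the highest quartile the overlap was below the shifts, at 1.23% against 3.26%. This subset leaves out all peaks that met overexpressed PSPC1, UTP6, UTP3, CIRH1A or hnRNPU. Those lists followed knock-in PSPC1 over 1 Mb bins, with rho from 0.63 to 0.86, while the shifts moved the whole PSPC1 list. Leaving out such peaks can itself lower the overlap and lengthen the distances. The position of this subset against the shifts therefore decides nothing on the relation of SAFB to PSPC1. SAFB2 peaks with a peak in none of the 5 other lists, 801 in each quartile, went from 0.921 ± 0.0089 to 1.89 ± 0.032. Their highest quartile passed the shifts (186.0 kb against at most 129.1 kb for replicate 1, and 152.6 against 103.3 kb for replicate 2). The same limit of selection holds for these SAFB2 peaks. Neither end of the SAFB score gradient was limited to knock-in PSPC1. For the highest quartile, rho over 1 Mb bins was -0.26 with overexpressed PSPC1, -0.26 with UTP6, -0.18 with CIRH1A, -0.16 with hnRNPU and -0.14 with UTP3. For the lowest quartile it was 0.30, 0.32, 0.32, 0.27 and 0.34 in the same order. Each of these was above the 0.24 with knock-in PSPC1. The part of local read density or of the peak caller's background in these scores was not tested.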

How the data were processed

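ChIP-seq peak lists were used as the authors deposited them, 1 list per library. The submitters' processing notes name CASAVA, Bowtie2, TopHat and the mm9 build. The peak names carry the name MACS; its version, threshold and control are not given in the sources used here. The fifth column is a score whose unit the authors' deposited lists do not state, and it served only for ranks and minimums inside a list.

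Groups came from the sample titles. A peak was assigned to the bin of its midpoint. The last partial bin of a chromosome and 1 Mb bins empty in all 9 lists were left out. Each result was computed per PSPC1 library and averaged. For distances and overlaps, shifts moved the PSPC1 list by at least 1 Mb around the span from the first to the last peak of all lists. For bin classes and runs, the SAFB or SAFB2 classes were moved along the bins of each chromosome by at least 1 bin. Both used 1000 shifts with a fixed seed. Regions were named by length of run, product of counts, distance or mean score rank, 5 for each rule. Peaks off chromosomes 1 to 19 and other assays were not analysed here. No p-value was computed, because bins and peaks are not replicates. The members, bins and rules were chosen with earlier results of these data known. The scripts were tested on simulated data. The tools were pandas 2.3.3 and numpy 2.4.6 under Python 3.11.15, scipy 1.17.1 for rank correlations, and matplotlib 3.10.9 for plots. Alternatives in bin size, percentile, list length, score minimum, chromosomes, common regions, distance, shift and library are given in the closing section.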

Additional observations from a re-analysis of the deposited data

How the results depend on the processing

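The split of SAFB and SAFB2 by score, and its alternatives, were chosen after seeing the data. The fold of SAFB-poor bins among PSPC1-rich bins, 0.979 in 1 Mb bins, became 0.988 in 500 kb bins, 1.14 in 2 Mb bins, 0.888 for the top and bottom 10%, 1.33 with the 6118 highest-scoring peaks of each list, 1.05 with a score of at least 50, 1.07 without chromosome 1, 1.06 with percentiles within each chromosome and 0.996 without the 111 regions found in all 9 lists. For SAFB2 the fold of 0.960 became 0.905, 1.02, 0.911, 1.01, 1.01 and 1.02 under the first 6 of these settings. The fold of SAFB-rich 100 kb bins, 1.17, became 1.36 in 50 kb bins, 1.11 in 200 kb bins, 0.911 with 6118 peaks per list and 1.15 without the common regions. For SAFB2-rich 100 kb bins 1.21 became 1.42 in 50 kb bins, 1.11 in 200 kb bins, 1.24 for the top 10%, 1.12 with 6118 peaks, 1.19 with a score of at least 50, 1.20 with percentiles within chromosomes and 1.18 without common regions. The distance ratio of SAFB, 0.772, became 1.25 with 6118 peaks and 0.923 with a score of at least 50, and that of SAFB2, 0.700, became 0.986 and 0.873. For the highest SAFB score quartile 1.63 became 1.75 with 6118 peaks, 1.72 with a score of at least 50, 1.70 without common regions and 1.55 with shifts from 0 to the largest end. For the highest SAFB2 quartile 1.07 became 1.35, 1.21, 1.21 and 1.02 in the same settings and 1.16 without chromosome 1. Of the rank correlations over 1 Mb bins, that of SAFB became -0.22 with 6118 peaks per list, and that of SAFB2 became -0.031 with 6118 peaks and -0.0016 in 2 Mb bins. The cause of these changes was not tested.

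Using a single PSPC1 library gave folds of 0.973 to 0.985 and 0.936 to 0.983 for SAFB-poor and SAFB2-poor bins, and 1.16 to 1.18 and 1.20 to 1.21 for SAFB-rich and SAFB2-rich 100 kb bins. The distance ratios were 0.735 to 0.808 for SAFB, 0.660 to 0.740 for SAFB2, and 1.61 to 1.65 and 1.04 to 1.10 for their highest score quartiles. No paired analysis was possible because SAFB and SAFB2 have 1 library each and no result comes from a test. Unknown depth and 1 library per overexpressed protein limit all of these values.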

Other observations

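Bins rich in both PSPC1 and SAFB held more peaks of all other lists than bins rich in PSPC1 and poor in SAFB, with the largest ratios for CIRH1A and UTP3, which are factors of ribosome biogenesis. In the 121 bins rich in PSPC1 replicate 1 and in SAFB, CIRH1A stood at 3.18 times its mean over all bins and UTP3 at 2.86 times. In the 149 PSPC1-rich, SAFB-poor bins they stood at 1.78 and 1.66 times. hnRNPU stood at 2.08 and 1.50 times in these classes, UTP6 at 2.24 and 1.92 times, and overexpressed PSPC1 at 2.50 and 2.13 times. PSPC1 replicate 2, which did not choose the bins, stood at 3.33 and 2.87 times. Choosing the bins on PSPC1 replicate 2 and SAFB2 gave 2.98 times for CIRH1A and 2.75 times for UTP3 in 134 bins rich in both, with hnRNPU at 1.98 times, against 1.74, 1.68 and 1.53 times in 162 bins rich in PSPC1 and poor in SAFB2. The difference was not tested, since each of these proteins has 1 library.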
